A study of Mus musculus with 11 samples.

Results

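The collagen genes of the mouse colon were followed before and after an injection of imatinib, a drug that inhibits the ABL, KIT and PDGF receptor tyrosine kinases. Members were all genes whose single symbol in the platform annotation was Col, a number, the letter a and a number. This gave 42 collagen genes of 18193 genes measured, each read from the probe set with the highest mean over all arrays. Total RNA was taken from whole colon of adult C57BL/6 mice and hybridised to Affymetrix 430 2.0 arrays. The control group was colon taken before imatinib (n = 3), and the other groups were colon taken 3 h (n = 4) and 12 h (n = 4) after the injection. The labels give no altered allele, sex, exact age, drug dose or clock time of harvest and describe no vehicle injection, so the drug, the injection and the time of day cannot be told apart. Because the labels do not tie arrays to individual mice, the p-values reflect only how far these samples differed among themselves, which may be technical.

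Collagens are extracellular proteins whose chains wind into a triple helix. Fibrillar collagens bear tension in connective tissue, fibril-associated collagens and collagen VI link those fibrils to their surroundings, and collagen IV forms the sheet-like network of basement membranes. In the gut wall most fibrillar collagen is made by fibroblasts and smooth muscle cells, and the chains need dedicated enzymes for hydroxylation, folding, trimming and cross-linking.

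Before the collagens are described, 5 arrays need naming, because they carried high signals of pancreatic acinar genes. These were control replicate 1, 3 h replicate 3 and 12 h replicates 1, 3 and 4, whose summed signal over 8 measured acinar markers was above 10000, against 188 to 1429 on the other arrays. Colon epithelium markers, 10 in number, had summed signals of 40704 to 56261 on all arrays. Spiked Bacillus control signals summed to between 4401 and 5233 in the control group, 4958 to 5789 at 3 h and 6318 to 12222 at 12 h. The ratio of 3' to 5' signal of Gapdh, a check of RNA integrity, lay between 0.762 and 0.908 on all 11 arrays. The part of these array differences in the results below was not tested.

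At 3 h the collagen genes as a set stood close to control in their median change. At 12 h a group of the fibrillar, collagen VI, fibril-associated and multiplexin genes was lower. In the limma fit, with a gene called at a Benjamini-Hochberg adjusted p under 0.05 over all genes, 0 collagen genes rose and 1 fell at 3 h against control, where 1.43% of all genes rose and 1.11% fell. At an unadjusted p under 0.05, 2 of the 42 differed there, where 15% of all genes did. At 12 h against control 10 collagen genes fell and 0 rose, where 0.835% of all genes fell and 0.781% rose. At 12 h against 3 h 12 fell, the same 10 with Col6a1 and Col12a1, and 0 rose, where 2.09% of all genes fell and 1.99% rose. At an unadjusted p under 0.05, 17 of the 42 differed at 12 h from control, where 15.8% of all genes did, and 21 from 3 h, where 17.7% did. The contrasts against control share the control arrays, and both contrasts of the 12 h group share the 12 h arrays.

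The median change over the 42 genes was −0.02 at 3 h, against −0.02 over all genes, on the log2(signal + 16) scale used throughout, which understates the change of dim genes. At 12 h it was −0.22, against −0.01 over all genes, and from 3 h to 12 h it was −0.26, against 0.01. The change from control lay below 0 for 22 collagen genes at 3 h, where 54.1% of all genes did, and for 32 at 12 h, where 51.4% did. Between 3 h and 12 h it lay below 0 for 36, where 47.2% of all genes did. In 17 of the 42 genes every 12 h array was lower than every control array, which held for 6.96% of all genes, and in 0 was every 12 h array higher, which held for 6.02%. In 13 every 12 h array was lower than every 3 h array, which held for 5.26% of all genes, and in 0 was every array higher, which held for 6.28%. At 3 h only Col4a4 had all arrays below control, where 8.55% of all genes did, and only Col25a1 had all arrays above it, where 6.76% did.

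**Figure D1:**
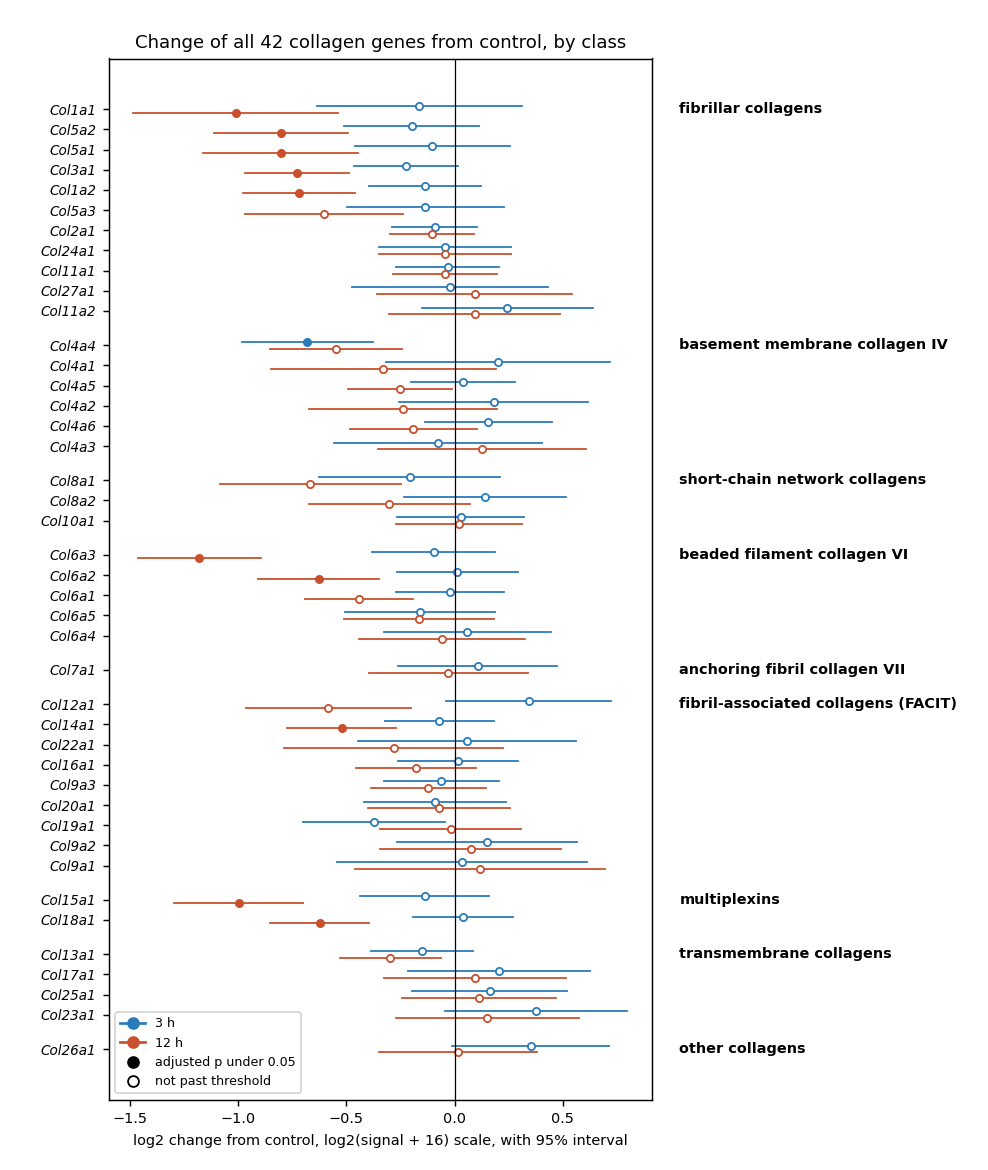
Change of each of the 42 collagen genes from control at 3 h (blue) and 12 h (red), on the log2(signal + 16) scale, with 95% intervals from the limma fit, grouped by collagen class. Filled points passed an adjusted p under 0.05; the 10 filled red points lie between −1.18 and −0.52, and the 1 filled blue point is Col4a4.

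Signal strength set how much could be read from a gene. The mean signal over the 11 arrays lay below 16, the offset added before the log, for 17 collagen genes, and 0 of these were called at 12 h in either contrast. Of the 25 genes at or above 16, 0 fell at 3 h, where 1.52% of all genes that bright fell. At 12 h 10 of them fell against control, where 1.14% of all genes that bright did, and 12 fell against 3 h, where 2.93% did. In 23 of those 25 the change at 12 h from control lay below 0. A change in the dim 17 was not detectable unless it was large on this scale.

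The fibrillar collagens, which assemble into the tension-bearing fibrils, had 5 of 11 members lower at 12 h against control and the same number lower against 3 h. At 3 h the change lay below 0 in 10 of the 11, where 54.1% of all genes did, and 0 were called. The median change of the 11 was −0.10 at 3 h and −0.60 at 12 h. The members that fell at 12 h were both chains of collagen I, the chain of collagen III and the Col5a1 and Col5a2 chains of collagen V. In bulk tissue, fewer cells of a type and less RNA per cell cannot be told apart.

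Col3a1, whose chain forms the homotrimer of collagen III in pliable tissues, gave signals of 5189, 3842 and 4049 on the control arrays, 3704, 3897, 3623 and 3571 at 3 h, and 2659, 2502, 2720 and 2530 at 12 h. All 12 h arrays lay below all others, while the 3 h arrays overlapped the control arrays. The 3 h change was −0.22 (95% interval −0.47 to 0.02) and did not pass the test (adjusted p = 0.375). That interval does not show that Col3a1 was unaltered at 3 h. The 12 h mean of 2603 ± 104 (SD, n = 4) was 59.7% of the control mean of 4360 ± 725 (SD, n = 3), a log2 change of −0.73 ± 0.11 (SE, adjusted p = 0.00913).

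Col1a1, the alpha 1 chain of collagen I, gave 793, 568 and 469 in control, 624, 519, 390 and 624 at 3 h, and 358, 332, 221 and 260 at 12 h. Col1a2, the partner chain, gave 1799, 1377 and 1399 in control, 1385, 1432, 1233 and 1460 at 3 h, and 996, 877, 947 and 839 at 12 h. Both chains were lower on every 12 h array than on any earlier array, and at 3 h both overlapped control. Against control Col1a1 fell to 48.0% (log2 change −1.01 ± 0.22, SE, adjusted p = 0.0428). Col1a2 stood at 60.0% (−0.72 ± 0.12, adjusted p = 0.0147).

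Col5a1, a chain of the collagen V that starts and limits fibril growth, gave 190, 170 and 155 in control, 144, 172, 125 and 202 at 3 h, and 119, 92.4, 82.9 and 75.9 at 12 h. Col5a2, its partner chain, gave 692, 541 and 477 in control, 494, 565, 418 and 491 at 3 h, and 356, 321, 316 and 276 at 12 h. Again the 12 h arrays were the lowest 4 of the 11 for both genes. Against control the log2 change was −0.80 ± 0.16 for Col5a1 (SE, adjusted p = 0.0351) and −0.80 ± 0.14 for Col5a2 (adjusted p = 0.0207). Col5a3, the third chain of the type, did not pass the test, with a change of −0.60 ± 0.17 (adjusted p = 0.0979), although every 12 h array lay below every control array.

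The other 5 fibrillar genes are known mainly from cartilage and bone or are minor fibrillar chains, and none passed the test. Their 12 h changes ran from −0.10 for Col2a1, the cartilage fibril chain, to 0.09 for Col11a2 and Col27a1. Of these only Col27a1 had a mean signal above 16, at 47.8.

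**Figure D2:**
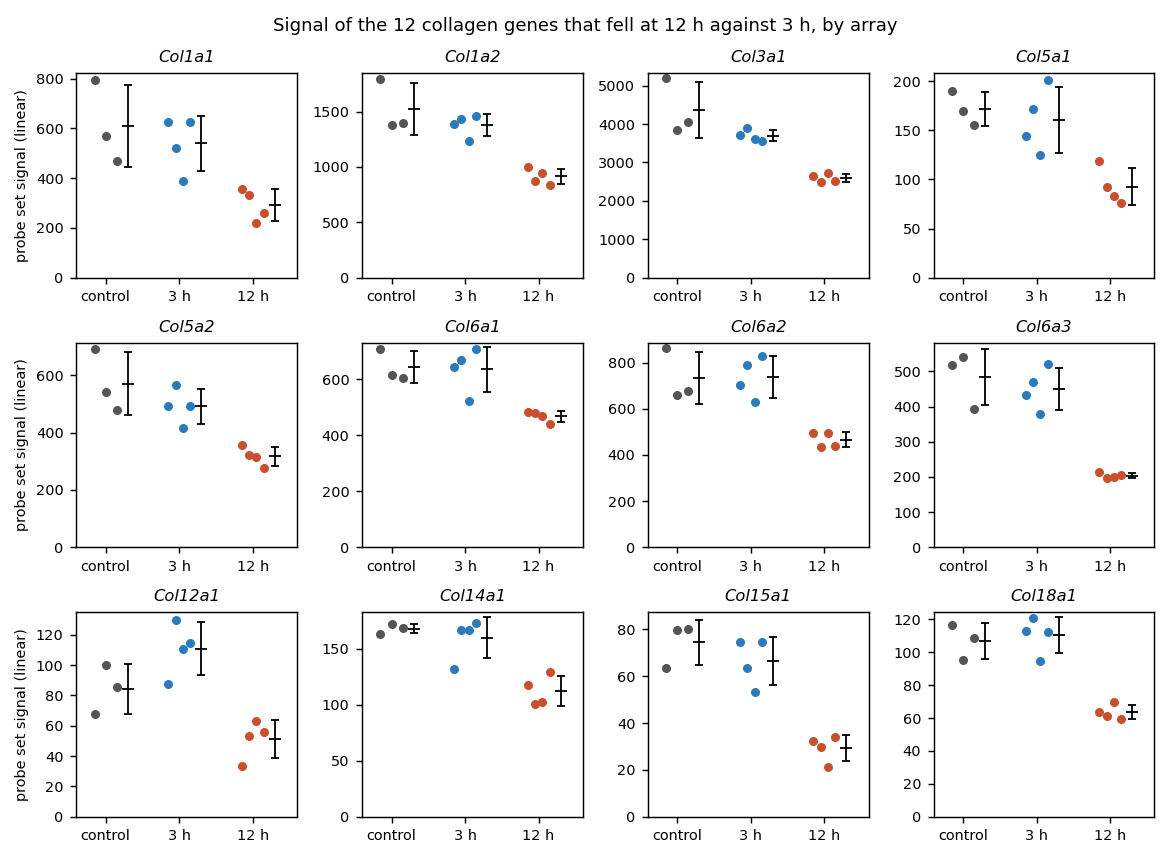
Probe set signal (linear, array-scaled) on each of the 11 arrays for the 12 collagen genes that fell at 12 h against 3 h, with the mean and SD of each group as bars. In every panel the 4 arrays at 12 h lie below all 3 h and control arrays, and in every panel the 3 h and control arrays overlap.

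Collagen VI, the beaded filament that ties cells and basement membranes to the interstitial fibrils, held the largest log2 fall from control among the collagens at the offset of 16. With an offset of 1 Col15a1 fell further (−1.32, against −1.24 for Col6a3), as it also did as a percentage of the control mean. Col6a3, its long chain, gave 518, 540 and 394 in control, 434, 469, 378 and 521 at 3 h, and 213, 196, 199 and 205 at 12 h. The 12 h arrays were close to each other and well apart from all 7 others. The 12 h mean of 203 ± 7.55 (SD, n = 4) was 41.9% of the control mean of 484 ± 78.9 (SD, n = 3), with a log2 change of −1.18 ± 0.13 (SE, adjusted p = 0.00101) from control and −1.08 ± 0.12 (adjusted p = 0.00044) from 3 h.

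Col6a2, which joins the same filament, gave 865, 660 and 676 in control, 704, 791, 628 and 829 at 3 h, and 494, 436, 496 and 439 at 12 h. Its log2 change from control was −0.63 ± 0.13 (SE, adjusted p = 0.0343). Col6a1, the third of the classic chains, gave 710, 617 and 605 in control, 643, 671, 522 and 708 at 3 h, and 484, 480, 470 and 441 at 12 h. Its groups at 12 h and control did not overlap either, but the change of −0.44 ± 0.12 missed the threshold (adjusted p = 0.0821). The change of Col6a1 from 3 h, −0.42 ± 0.11, passed it (adjusted p = 0.0492), a call lost on leaving out any 1 of 10 arrays. Col6a4 and Col6a5, later-described chains that can stand in for Col6a3, changed by −0.06 and −0.17 at 12 h and did not pass the test.

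Multiplexins are basement membrane collagens with an interrupted helix, and both members fell. Col15a1, found where basement membranes meet fibrils, gave 63.4, 79.8 and 80.3 in control, 74.5, 63.3, 53.4 and 74.5 at 3 h, and 32.4, 29.9, 21.4 and 34.1 at 12 h. Col18a1, the precursor of endostatin, gave 116, 95.2 and 109 in control, 113, 121, 94.8 and 112 at 3 h, and 63.9, 61.5, 69.7 and 59.6 at 12 h. In both genes the 12 h arrays were below all others, and control and 3 h overlapped. Col15a1 fell to 39.5% of the control mean (log2 change −0.997 ± 0.14, SE, adjusted p = 0.00564), and Col18a1 to 59.6% (−0.62 ± 0.11, adjusted p = 0.0164).

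The fibril-associated collagens, which coat the fibril surface, had 1 of 9 members lower at 12 h against control and 2 against 3 h. Col14a1, which regulates fibril diameter, gave 164, 172 and 168 in control, 132, 167, 167 and 173 at 3 h, and 117, 101, 102 and 129 at 12 h. Replicate 1 stood below the other 3 h arrays, and the 12 h arrays lay below every other array. The change from control was −0.52 ± 0.12 (SE, adjusted p = 0.0462), the smallest of the 10 falls.

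Col12a1, a fibril-surface collagen of tissues under tension, gave 67.4, 99.8 and 85.2 in control, 87.7, 130, 111 and 115 at 3 h, and 33.2, 53.1, 62.8 and 55.8 at 12 h. Its 3 h mean was above the control mean, but those arrays overlapped and the change of 0.34 ± 0.18 did not pass the test (adjusted p = 0.399). At 12 h it lay below control on every array without passing the test (−0.58 ± 0.18, adjusted p = 0.123). From 3 h to 12 h it fell by 0.93 on the log2 scale (SE 0.16, adjusted p = 0.00849). When all 4 probe sets of Col12a1 were averaged this call was lost (adjusted p = 0.309). Among the other fibril-associated genes the 12 h change from control ran from −0.28 for Col22a1 to 0.12 for Col9a1, and 6 of the 9 had a mean signal below 16. Col16a1, at a mean signal of 127, changed by −0.18 ± 0.13 (SE) and did not pass the test.

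Collagen IV, the sheet of the basement membrane, had 0 of 6 members called at 12 h in either contrast. Col4a1, a chain of the ubiquitous collagen IV network, gave 1058, 1041 and 763 in control, 1093, 1083, 973 and 1209 at 3 h, and 843, 801, 1058 and 436 at 12 h. Col4a2, the other chain of that network, gave 422, 376 and 296 in control, 410, 462, 348 and 435 at 3 h, and 346, 350, 357 and 195 at 12 h. For both genes the 12 h arrays overlapped control, and 12 h replicate 4 was the lowest of all 11 arrays. The 12 h change from control was −0.33 for Col4a1 (95% interval −0.85 to 0.19) and −0.24 for Col4a2 (−0.67 to 0.19). Both intervals reach a fall as large as that of Col6a2, −0.63, and do not show that collagen IV was unaltered, and a difference between classes was not tested.

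Col4a1 and Col4a2 are encoded head to head, so a single stretch of DNA carries both starts. In RefSeq's GRCm38.p6 annotation the first bases of the genes overlap by 22 bases at chr8:11312805-11312826. Both genes read lowest on the same 12 h array, and a link between that reading and this stretch was not tested. It is given 5′ to 3′ on the plus strand, the strand of Col4a2, with all bases in capitals because all lie in both genes.
Col4a1/Col4a2 shared start: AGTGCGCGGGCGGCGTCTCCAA

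Col4a4, a chain of specialised basement membranes such as that of the kidney glomerulus, was the only collagen called at 3 h. Its signals were 12.3, 11.3 and 16.5 in control, 1, 2.2, 1.4 and 4.7 at 3 h, and 6.7, 0.8, 1.7 and 7.8 at 12 h. All 3 h and 12 h arrays lay below all control arrays, at signals around or below the offset of 16. The log2 change was −0.68 ± 0.14 at 3 h (SE, adjusted p = 0.026) and −0.55 ± 0.14 at 12 h (adjusted p = 0.0753). The call at 3 h was lost on leaving out any 1 of 6 arrays (all 3 control arrays and 3 h replicates 1, 2 and 3), with adjusted p up to 0.0859. The other probe sets of Col4a4, at mean signals of 5.52 and 4.83, changed by −0.22 and −0.46 at 3 h. Neither passed the limma test with every probe set tested on its own (adjusted p = 0.706 and 0.0978). Col4a3, its neighbour in the genome, changed by 0.13 at 12 h, the highest of the class. Col4a5 and Col4a6 changed by −0.25 and −0.19, and every 12 h array of Col4a5 lay below every control array.

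**Figure D3:**
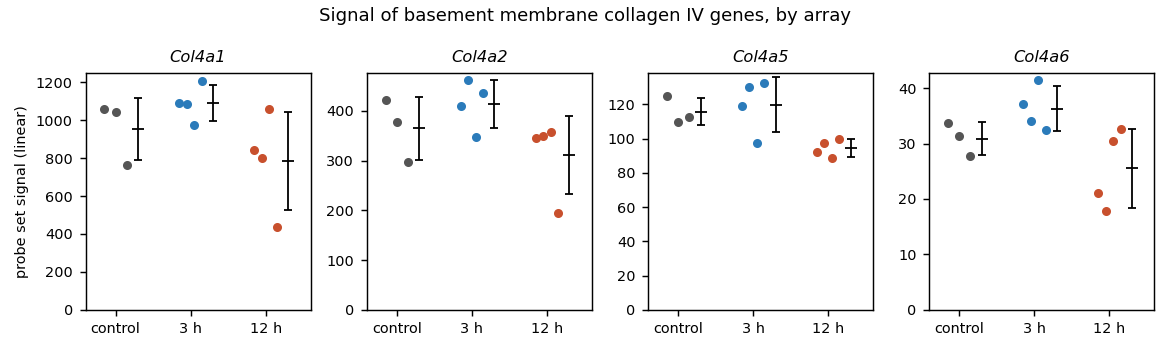
Probe set signal (linear, array-scaled) of 4 collagen IV genes on each array, with the group mean and SD as bars. The last 12 h array is lowest for Col4a1 (436) and Col4a2 (195), while the other 12 h arrays overlap the control arrays.

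The anchoring fibril gene Col7a1, which fastens epithelia to the stroma, gave 28.3, 19.8 and 14.8 in control, 26.4, 25.2, 20.1 and 22.0 at 3 h, and 31.1, 11.9, 19.0 and 19.8 at 12 h. The groups overlapped at every time, and its 12 h change was −0.03 (95% interval −0.40 to 0.34), a sign that turned under both other scalings of the arrays (0.027 and 0.013). Col17a1, the hemidesmosome collagen of stratified epithelia, gave 0.5, 4.7 and 1.0 in control, 3.5, 0.4, 5.6 and 10.6 at 3 h, and 1.1, 1.3, 11 and 1.0 at 12 h. These values are near the bottom of the scale and overlapped throughout, and its 12 h change was 0.09 (95% interval −0.33 to 0.52).

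None of the other transmembrane collagens passed the test. Their 12 h change from control ran from −0.30 for Col13a1, a collagen of cell adhesion sites, to 0.15 for Col23a1. Col25a1, known from neurons and muscle, had signals of 6.5, 6.6 and 6.1 in control and 9.7, 9.2, 10.1 and 7.3 at 3 h, all higher, but its change of 0.16 did not pass the test (adjusted p = 0.732). Among the short-chain collagens, Col8a1 of vessel walls had every 12 h array below every control and every 3 h array without passing the test (−0.67 ± 0.19, SE, adjusted p = 0.109). Col8a2 and Col10a1 changed by −0.30 and 0.02, and Col26a1, outside these classes, by 0.01.

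The 10 falls differed in how far they leaned on single arrays. Col3a1, Col6a3 and Col15a1 stayed called at 12 h against control when any 1 of the 11 arrays was left out. Col1a2 and Col18a1 lost the call without control replicate 1 (adjusted p = 0.0649 and 0.0772). Col5a2 lost it without any 1 of 3 arrays, Col6a2 of 7, Col1a1 and Col5a1 of 8 and Col14a1 of 9, with adjusted p up to 0.16. In all 10 the change stayed below 0 in each of these fits. With the arrays shifted to an equal median, Col1a1, Col5a1, Col6a2, Col14a1 and Col18a1 stayed lower at 12 h but lost the call (adjusted p from 0.0702 to 0.149). The count of 10 became 3 without control replicate 1, 5 without control replicate 2, 6 without 12 h replicate 2 and 5 without 12 h replicate 3. Against 3 h the count of 12 became 7 without 3 h replicate 1, 6 without 3 h replicate 2, 7 without 3 h replicate 4, 6 without 12 h replicate 2 and 7 without 12 h replicate 3. In that contrast Col6a1 lost the call without any 1 of 10 arrays, Col1a1 and Col14a1 of 7, Col5a1 and Col5a2 of 6 and Col3a1 of 3. The calls of Col1a2, Col6a2, Col6a3, Col12a1, Col15a1 and Col18a1 against 3 h held in each of these fits.

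Without the 5 arrays high in pancreatic transcripts, a choice made after seeing the data, 2 control arrays, 3 arrays at 3 h and 1 array at 12 h remained. The lone 12 h array, replicate 2, is then assumed to vary like the others. All 10 genes kept a change below 0, from −1.17 for Col6a3 to −0.60 for Col6a2, but 0 were called (adjusted p from 0.147 to 0.438). Of all 18193 genes 8 were called in that contrast. At an unadjusted p under 0.05, 16 of the 42 collagen genes differed, where 9.36% of all genes did. Against 3 h it also called 0, with 18 of the 42 at an unadjusted p under 0.05, where 11.4% of all genes were, and with changes between −1.21 for Col6a3 and −0.48 for Col6a1 among the 12. Col6a3 on that array was 196, against 540 and 394 on the remaining control arrays.

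Several of the 10 have other probe sets, which give a further reading of the same RNA from other stretches of the transcript. Of 11 dimmer probe sets, belonging to 8 of the 10 genes, 10 changed in the same direction and 3 passed the test. Over all genes, each read from its probe set with the highest mean, 51.4% changed below 0 and 0.835% fell. The 8 genes were chosen for their fall on these same arrays, so the dimmer sets are not independent support. A dimmer set of Col3a1 fell by 1.19 on the log2 scale (adjusted p = 0.00345), one of Col1a2 by 0.90 (adjusted p = 0.0153) and one of Col5a1 by 0.69 (adjusted p = 0.0387). The exception was a Col14a1 set at a mean signal of 1.15, with a change of 0.01. The second set of Col1a1 changed by −0.68 without passing the test (adjusted p = 0.11). Col6a3 and Col15a1 have 1 probe set each.

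Some collagen genes lie side by side, and 7 such neighbour pairs were found in RefSeq's gene order. Col3a1 and Col5a2, which adjoin on chromosome 1, both fell at 12 h. Col6a1 and Col6a2 adjoin on chromosome 10 and both fell from 3 h to 12 h, though the call of Col6a1 was lost without any 1 of 10 arrays. Col9a1 with Col19a1, Col4a3 with Col4a4, Col4a1 with Col4a2, Col6a4 with Col6a5, and Col4a5 with Col4a6 had no called member at 12 h in either contrast.

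The stretches upstream of 3 of the genes that fell show how unlike their starts are. RefSeq's GRCm38.p6 promoter entries matched 33 of the 42 collagen genes, with 36 entries. Each sequence below is the 250 bases before the annotated start, given 5′ to 3′ on the gene's own strand, with capitals marking matches on either strand to the letters of the TATA box (TATAAA), of the CCAAT box, and of the GC box (GGGCGG). The genes shown are Col6a3 (chr1:90843972-90844221, minus strand), Col3a1 (chr1:45311288-45311537, plus strand) and Col1a2 (chr6:4505368-4505617, plus strand).
Col6a3: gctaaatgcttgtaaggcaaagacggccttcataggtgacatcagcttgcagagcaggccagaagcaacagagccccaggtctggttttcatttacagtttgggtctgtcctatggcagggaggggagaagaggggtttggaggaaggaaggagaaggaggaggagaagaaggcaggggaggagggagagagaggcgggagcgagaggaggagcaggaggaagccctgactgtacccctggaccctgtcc
Col3a1: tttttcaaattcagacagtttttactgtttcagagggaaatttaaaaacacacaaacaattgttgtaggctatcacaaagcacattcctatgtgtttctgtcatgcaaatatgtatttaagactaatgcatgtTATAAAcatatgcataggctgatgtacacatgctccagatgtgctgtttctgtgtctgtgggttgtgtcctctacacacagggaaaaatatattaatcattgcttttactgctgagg
Col1a2: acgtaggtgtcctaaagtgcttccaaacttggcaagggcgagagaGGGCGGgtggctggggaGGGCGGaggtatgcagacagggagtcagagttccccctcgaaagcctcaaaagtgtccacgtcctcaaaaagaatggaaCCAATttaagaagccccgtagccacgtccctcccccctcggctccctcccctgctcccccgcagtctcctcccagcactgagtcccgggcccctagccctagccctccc

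Col6a3 holds none of the 3 motifs in this window, at 57.2% G and C. Col3a1 holds 1 TATAAA at 35.2% G and C, and Col1a2 holds 1 CCAAT and 2 GGGCGG at 62.0%. Over all collagen entries TATAAA occurred in 13.9%, against 12.4% of 32851 promoters of all genes, CCAAT in 36.1% against 33.8%, and GGGCGG in 58.3% against 32.7%. Among the 9 entries of the 7 genes that fell at 12 h and have one, GGGCGG occurred in 55.6%, CCAAT in 22.2% and TATAAA in 11.1%. A match of letters describes the sequence and is not shown to be a binding site.

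Of the enzymes that fold and modify collagen chains, 22 of 23 listed genes were measured. Against control 2 fell and 0 rose at 3 h, where 1.11% of all genes fell. At 12 h against control 1 fell and 0 rose, where 0.835% of all genes fell. From 3 h to 12 h 1 rose and 1 fell, where 1.99% of all genes rose and 2.09% fell. P4ha1, the catalytic subunit of prolyl 4-hydroxylase that stabilises the triple helix, gave 132, 126 and 146 in control, 71.1, 68.7, 67.2 and 67.2 at 3 h, and 105, 94.9, 110 and 99.1 at 12 h. The 3 groups did not overlap, with 3 h lowest. It fell at 3 h (log2 change −0.83 ± 0.09, SE, adjusted p = 0.000513) and rose from 3 h to 12 h (0.48 ± 0.08, adjusted p = 0.00747), the interval in which the collagen genes fell. Plod2, a lysyl hydroxylase for cross-link sites, fell from 3 h to 12 h (−0.61 ± 0.13, adjusted p = 0.0235). Colgalt2, a collagen galactosyltransferase, was lower at 3 h (−0.72, adjusted p = 0.0157) and 12 h (−0.72, adjusted p = 0.0239), at control signals of 14.9 to 18.5 near the offset.

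Among 10 measured genes for procollagen cleavage and cross-linking, 1 fell at 12 h in each contrast and 0 rose. Of all genes 0.835% fell at 12 h against control and 2.09% against 3 h. Lox, the lysyl oxidase that starts cross-linking, gave 85.6, 84.8 and 82.5 in control, 85.2, 103, 78.9 and 82.6 at 3 h, and 54.5, 41.6, 51.7 and 38.7 at 12 h. All 12 h arrays were below all others, as for the collagens that fell. Its change was −0.69 ± 0.12 from control (SE, adjusted p = 0.0174) and −0.73 ± 0.11 from 3 h (adjusted p = 0.00316).

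Of 17 measured proteoglycans and glycoproteins that bind fibrils, 2 fell and 0 rose at 12 h against control, 3 fell against 3 h, and 1 rose at 3 h. Of all genes 0.835% fell at 12 h against control, 2.09% fell against 3 h and 1.43% rose at 3 h. The median change of the 17 at 12 h was −0.45, against −0.01 over all genes. Lum, which spaces collagen fibrils, gave 958, 990 and 1017 in control, 683, 894, 800 and 827 at 3 h, and 370, 483, 462 and 746 at 12 h. It fell at 12 h (−0.96 ± 0.19, SE, adjusted p = 0.0277), with 12 h replicate 4 the highest of its group and within the 3 h range. Postn, a matricellular partner of collagen I, fell by 0.65 on the log2 scale at 12 h (adjusted p = 0.0327). Sparc, a collagen-binding glycoprotein, fell from 3 h to 12 h (−0.58, adjusted p = 0.03). Thbs1, which activates latent TGF-beta, gave 126, 158 and 102 in control, 472, 554, 394 and 394 at 3 h, and 221, 157, 182 and 63.8 at 12 h. It rose at 3 h (1.70 ± 0.30, SE, adjusted p = 0.0135) and fell from 3 h to 12 h (−1.54 ± 0.28, adjusted p = 0.01).

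None of the 14 genes for collagen breakdown and its inhibitors was called in any of the 3 contrasts. The 6 with the smallest p were Mmp2, Timp1, Mmp8, Ctsk, Timp3 and Timp2. Mmp2, a gelatinase, was lower at 12 h on every array than in control without passing the test (−0.54 ± 0.13, SE, adjusted p = 0.0584). Timp1, a metalloproteinase inhibitor, gave 40.2, 24.8 and 47.2 in control, 93.0, 131, 104 and 85.5 at 3 h, and 184, 169, 169 and 34.9 at 12 h. At 12 h 3 arrays were above every control array and replicate 4 was within the control range, and the change of 1.38 ± 0.40 did not pass the test (adjusted p = 0.108). Mmp8, a neutrophil collagenase, changed by 0.52 at 3 h and 0.34 at 12 h, and Ctsk, a lysosomal collagenase, by −0.05 and 0.22. The inhibitors Timp3 and Timp2 changed by −0.28 and −0.26 at 12 h.

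Of 8 measured collagen receptors, 0 were called against control and 1 fell from 3 h to 12 h, where 2.09% of all genes fell. This was Itgb1, the shared beta subunit of collagen-binding integrins, with signals of 876, 743 and 717 in control, 845, 905, 835 and 811 at 3 h, and 645, 598, 597 and 652 at 12 h. The 12 h arrays were the lowest, and the change from 3 h was −0.44 ± 0.09 (SE, adjusted p = 0.0206). Over 23 alternative fits this change shrank to as little as −0.16, and the call was lost in 8 of them.

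Among 17 measured genes of the TGF-beta and PDGF signals that act on collagen-making cells, 1 rose and 2 fell at 3 h, and 2 fell at 12 h against control. Of all genes 1.43% rose and 1.11% fell at 3 h, and 0.835% fell at 12 h against control. From 3 h to 12 h 3 of the 17 fell and 0 rose, where 2.09% of all genes fell. Ccn2, a TGF-beta target that promotes matrix production, gave 336, 295 and 480 in control, 155, 155, 138 and 133 at 3 h, and 236, 136, 177 and 233 at 12 h. It was below control on every array at both times, by −1.23 ± 0.19 at 3 h (SE, adjusted p = 0.00657) and −0.87 ± 0.19 at 12 h (adjusted p = 0.0468). Tgfbr1, the type I receptor for TGF-beta, gave 290, 358 and 412 in control, 473, 642, 529 and 579 at 3 h, and 273, 380, 318 and 344 at 12 h. It rose at 3 h (0.64 ± 0.15, adjusted p = 0.0457) and fell again by 12 h (−0.73 ± 0.14 from 3 h, adjusted p = 0.0123). Tgfbr2, the type II receptor, fell from 3 h to 12 h (−0.44, adjusted p = 0.0211). Over 23 alternative fits the change of Tgfbr2 shrank to as little as −0.21, and the call was lost in 8 of them. The ligand Tgfb3 fell at 12 h against control (−0.61, adjusted p = 0.0428) and against 3 h (−0.49, adjusted p = 0.0479). The ligand Pdgfa fell at 3 h (−0.71, adjusted p = 0.0121). Pdgfra and Pdgfrb, the PDGF receptors and known imatinib targets, are named outside the rule for this list. Neither passed the test at 12 h, with changes of −0.04 and −0.22.

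**Figure D4:**
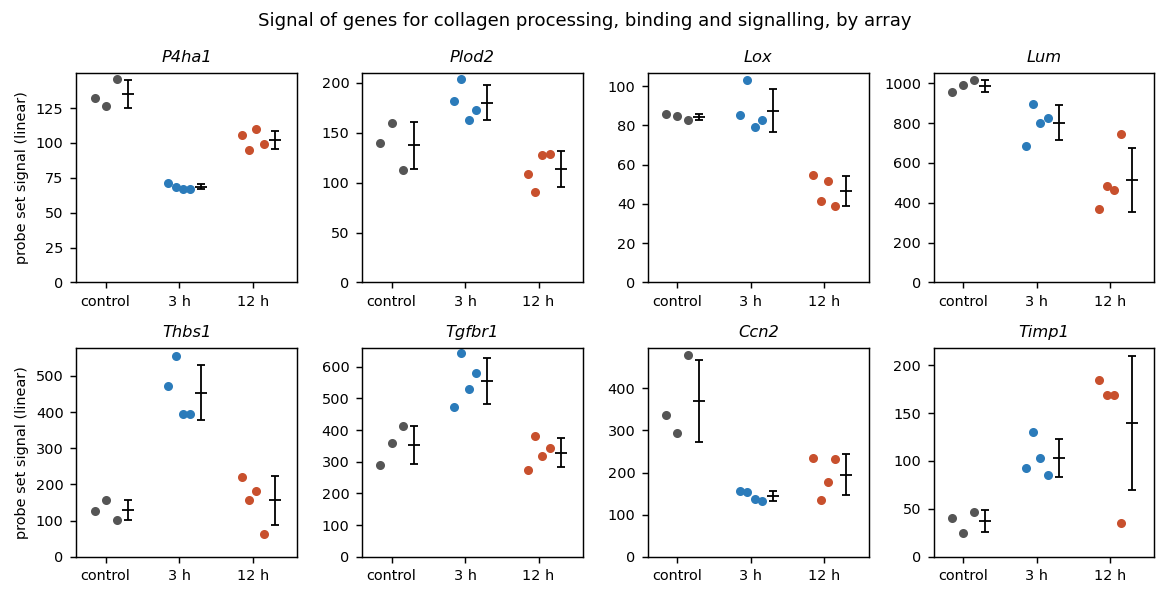
Probe set signal (linear, array-scaled) on each array for 8 genes of collagen modification, cross-linking, fibril binding, signalling and breakdown, with the group mean and SD as bars. P4ha1 and Ccn2 are lowest at 3 h on average, Thbs1 and Tgfbr1 are highest at 3 h, Lox and Lum are lowest at 12 h, and Timp1 is split at 12 h with 1 array at 34.9.

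These calls also leaned on single arrays to different degrees. The calls of P4ha1 at 3 h and of P4ha1, Lox, Thbs1 and Tgfbr1 between 3 h and 12 h held in all 11 fits that left out 1 array, as did that of Ccn2 at 3 h. Tgfbr1 at 3 h and Ccn2 at 12 h each lost the call without any 1 of 9 arrays, Lum at 12 h without any 1 of 5, and Lox at 12 h against control without any 1 of 2 (control replicates 1 and 2). Thbs1 at 3 h lost it without control replicate 1 (adjusted p = 0.0581), as did Pdgfa (adjusted p = 0.0617). Colgalt2 lost the call without any 1 of 2 arrays at 3 h and of 4 at 12 h, and Itgb1 and Tgfbr2 of 4. Plod2 lost it without any 1 of 5, Postn at 12 h against control of 6 and Sparc of 7. Tgfb3 lost it without any 1 of 9 arrays at 12 h against control and of 10 against 3 h. Without the 5 arrays high in pancreatic transcripts the rise of Thbs1 at 3 h stayed called (1.76, adjusted p = 0.0319), P4ha1 at 3 h changed by −0.84 (adjusted p = 0.0513), and the other calls of these lists were lost with their direction kept. Among them Ccn2 changed by −1.26 at 3 h, and Lox by −0.79 and Lum by −1.03 at 12 h, where 1 array remained.

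Fibroblasts and smooth muscle cells make collagen, and few of their markers passed the test. Of 12 fibroblast markers, 2 fell at 12 h against control (Lum and Mfap5) and 0 rose, where 0.835% of all genes fell. The median change of the 12 was −0.41, against −0.01 over all genes. In 7 of the 12 every 12 h array lay below every control array, which held for 6.96% of all genes. The summed signal of the 12 ran from 9212 to 11583 in control, 8816 to 10918 at 3 h and 6915 to 8621 at 12 h. Pdgfra, which defines most gut fibroblasts, changed by −0.04 and Cygb, another of the list, by 0.30. The changes of the other fibroblast markers from control ran from −1.14 for Mfap4 to −0.30 for Clec3b. From 3 h to 12 h 1 of the 12 fell (Mfap5) and 1 rose (Cygb, by 0.57, adjusted p = 0.047). Of all genes 2.09% fell and 1.99% rose in that contrast. Of 10 smooth muscle markers 0 passed the test at 12 h against control, with a median of −0.52. From 3 h to 12 h 2 of the 10 fell (Actg2 and Des), where 2.09% of all genes fell. Their summed signal ran from 23123 to 27489 in control and from 15747 to 25058 at 12 h. The part of either cell type in the collagen result was not tested.

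The same sets were read array by array at 12 h. Averaged over the 10 genes that fell, the log2 level relative to control was −0.68, −0.82, −0.86 and −0.85 on the 12 h arrays, a set that was chosen for this fall. Over the smooth muscle markers it was −0.81, −0.66, −0.65 and 0.00, with replicate 4 apart from the other 12 h arrays. Over the fibroblast markers it was −0.45, −0.37, −0.58 and −0.43, low on all 4. Over Col4a1 and Col4a2 it was −0.11, −0.14, 0.07 and −0.96. Endothelial markers, 9 in number, had a median change of −0.13 at 12 h with 0 called, and their mean was lowest on the same replicate 4, at a summed signal of 291 against 348 to 363 on the other 12 h arrays. Colon epithelium markers had a median change of 0.02 with 0 called at 12 h against control.

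**Figure D5:**
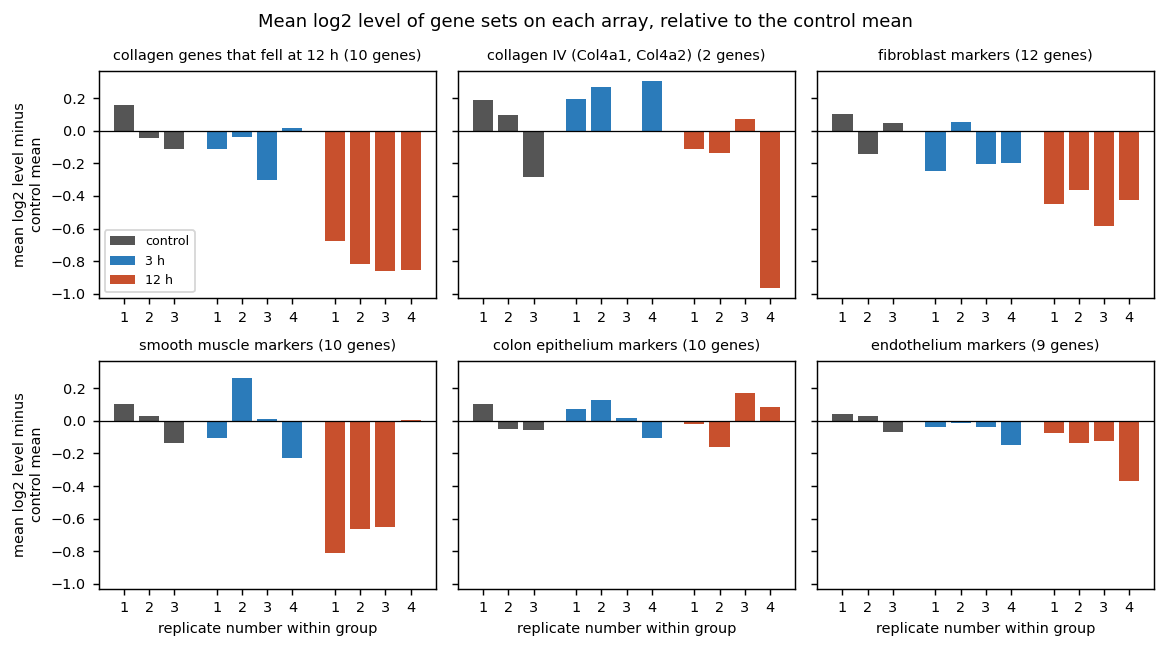
Mean log2(signal + 16) level of 6 gene sets on each array, minus the control mean, with bars from 0 for control (grey), 3 h (blue) and 12 h (red). The 10 collagen genes, chosen because they fell, lie between −0.68 and −0.86 on the 12 h arrays, while smooth muscle markers return to 0.00 and collagen IV drops to −0.96 on replicate 4.

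The summed signal of 5 measured fat markers was 698 to 948 in control, 1502 to 2259 at 3 h and 1028 to 2121 at 12 h. In this sum neither later group overlapped control. The median change of the 5 was 0.81 at 3 h and 0.55 at 12 h. At each time 1 of 5 was called higher, where 1.43% and 0.781% of all genes rose. This was Fabp4, a fatty acid carrier of adipocytes, at 1.16 (adjusted p = 0.0161) and 1.11 (adjusted p = 0.0276). Taken singly, 4 of the 5 had every 3 h array above every control array, where 6.76% of all genes did. At 12 h only 1 of the 5, Fabp4, had every array above control, where 6.02% of all genes did. Macrophage markers had a median change of −0.25 at 12 h against control with 1 of 6 lower (Csf1r), where 0.835% of all genes fell. The median was −0.12 for pericyte markers, −0.50 for mesothelial, 0.11 for enteric glia and −0.01 for skeletal muscle markers, with 0 called in these 4 lists. The part of the fat markers and of any of these lists in the collagen result was not tested.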

How the data were processed

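The authors deposited a linear intensity for each probe set and array, scaled so that the mean after trimming 2% at each end is 100, as the values show. Summary software and genome build were not given in the sources used here. Precision is limited by the number of arrays. Of 45101 probe sets, 34945 had 1 symbol in the platform annotation, 932 had several, 9160 had none and 64 were controls. Symbols were updated by Entrez number to RefSeq GRCm38.p6 (99.4% found). No 2 arrays were identical among 55 pairs. The probe set with the highest mean over 11 arrays stood for a gene.

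Values were taken as log2(signal + 16), with no filter on low values. All 18193 genes were fitted with limma 3.58.1 (R 4.3.3) over all 11 arrays with group as the only term (8 residual and 3.98 prior degrees of freedom). Tests were 2-sided and Benjamini-Hochberg adjusted over all genes. The fit was tested on simulated data. Members, classes, pathway and marker lists were chosen with earlier results of these data known. Collagens called in any of the 3 contrasts and a set of main chains are given array by array, the others by class. Each pathway list gives its called members, or the 6 with the smallest p. Same-numbered arrays correlated above 0.1 in 4 of 10 pairs (−0.295 to 0.415), so numbers were not used to pair samples. Alternatives covered scaling, offset, a signal filter, probe set choice, array weights, variance prior, arrays in the fit and a replicate block. Figures were drawn with matplotlib 3.10.9.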

Additional observations from a re-analysis of the deposited data

Results flagged for a closer look

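In 3 of the 34 collagen gene groups of 4 arrays examined, 1 array lay far from the rest of its group, where chance alone flags about 1 in 20 groups. Col14a1 on 3 h replicate 1 had a signal of 132.3, against 167 to 173.2 on the other 3 h arrays. Col17a1 on 12 h replicate 3 had 11, against 1 to 1.3. Col4a2 on 12 h replicate 4 had 194.6, against 345.7 to 357.

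The change from control differed between the times for 12 collagen genes, by the limma contrast of 12 h against 3 h at an adjusted p under 0.05. On the log2(signal + 16) scale this difference was −1.08 for Col6a3, −0.93 for Col12a1, −0.86 for Col15a1, −0.85 for Col1a1 and −0.70 for Col5a1. For Col18a1 it was −0.66, for Col6a2 −0.64, for Col5a2 −0.60, for Col1a2 −0.58, for Col3a1 −0.50, for Col14a1 −0.45 and for Col6a1 −0.42. The 12 genes were chosen by this same contrast. In each of them all 4 arrays at 12 h were lower than all 4 arrays at 3 h, which held for 5.26% of all genes.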

How the results depend on the processing

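In 23 alternatives for each contrast 0 collagen genes rose. At 12 h against control the 10 falls became 5 with arrays shifted to an equal median, 5 with an offset of 1, 2 in a fit of only the 2 groups compared, 6 with the replicate block and 0 without the 5 arrays high in pancreatic transcripts, and 3 to 9 when 1 array was left out. At 12 h against 3 h the 12 falls became 6 with equal medians, 7 with an offset of 1 and 0 without the pancreatic arrays, and 6 to 11 when 1 array was left out; the replicate block gave 10. At 3 h the 1 fall became 0 with equal medians, with an offset of 1, with the filter at a mean signal of at least 50, which removes Col4a4, and without the pancreatic arrays, and 0 to 1 when 1 array was left out. Over all genes the block moved the count at 12 h against control from 294 to 182. All 10 genes kept a change below 0 in every alternative run at 12 h. Among the collagens given array by array, signs turned for Col7a1, Col17a1 and Col4a2, none of them called. Col7a1 at 12 h became 0.027 with equal medians and 0.013 with quantile normalization, and ran from −0.16 to 0.11 when 1 array was left out. Col17a1 at 12 h became −0.12 without the pancreatic arrays and ran from −0.069 to 0.20 when 1 array was left out, and from 3 h to 12 h from −0.27 to 0.011. Col4a2 became 0.065 without the pancreatic arrays. Some alternatives test fewer genes or use fewer arrays, and why the counts and signs moved was not tested. Genes near or below a signal of 16 were too dim for small changes to be seen.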
